A study of Mus musculus with 2 samples.

Results

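Matrix metalloproteinases (MMPs), ADAMs, ADAMTS proteases and their inhibitors, the TIMPs, were examined in epithelial cells of the mouse submandibular gland at a young and an old age. The set was chosen by name, as all genes whose symbol on the array is Mmp, Timp, Adam or Adamts followed by a number, and it held 79 of the 37003 gene names on the array, with 154 probes. Of these 79 genes, 23 were MMPs, 4 were TIMPs, 33 were ADAMs and 19 were ADAMTS genes. The cells came from female C57BL/6 mice (C57BL/6N in the study's methods), for which the labels name no genetic change and no treatment, and were collected with magnetic beads against EpCAM, a surface protein of epithelial cells, after digestion of the gland with collagenase and hyaluronidase. The young group was 1 array at an age of 9 weeks and the aged group was 1 array at 24 months, both on the same slide. By the study's methods, young mice were bought from a breeder and aged mice came from the institute's own facility, so source and age cannot be told apart. With 1 array per age, no difference below has a replicate check or a test.

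MMPs are zinc-dependent enzymes that cut collagens, laminins and other proteins of the extracellular matrix, and most are made as inactive proenzymes. ADAMs are membrane proteins, many of which release the outer part of other surface proteins such as growth factors, cytokines and Notch receptors, whereas ADAMTS enzymes are secreted and act on procollagens and proteoglycans. TIMPs bind the active site of these enzymes, and in salivary glands the balance between the 2 sides is known for its part in branching during development and in the loss of basement membrane in sialadenitis.

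A gene was represented by 1 of its probes that the scanner software marked as well above background on at least 1 array, the one with the highest mean log2 signal over both arrays, with dim and substitute signals as they stood. Signals are given as deposited, in arbitrary units, with the software's own error for that spot, and differences are log2 of the aged over the young signal after each array was divided by its 75th percentile. That percentile was 256 for the young array and 198 for the aged one, so equal signals correspond to a difference of 0.37 on the log2 scale. The error of a difference, written after ±, is the software error of both spots and covers neither mice nor cell isolations. Where a probe was well above background on 1 array alone, the fold is a lower limit, computed against the dimmest signal that the software still marked well above background there (14.1 young, 14.3 aged) or the probe's own signal, whichever was higher.

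By the probe that represented them, the metalloproteinase and TIMP genes measured at both ages differed by less than 2-fold. Most genes so measured did as well. Of the 79 genes, 43 (54.4%) had a probe well above background, against 57.7% of all genes on the array. Among these 43 genes, 30 were measured on both arrays, 9 on the young array alone and 4 on the aged array alone. By the probe that represented it, none of the 30 differed by 2-fold or more in either direction. Of all genes measured on both arrays, 1.51% were higher by 2-fold or more in aged cells and 3.05% lower by as much. Adam8 and Timp3 were lower by more than 2-fold by another probe measured on both arrays, as given below. The differences of the 30 by their representing probes ran from -0.59 (Adamts2) to 0.65 (Adamts5), a largest fold of 1.57, with 11 above 0 and 19 below. Their median was -0.10 (quartiles -0.32 and 0.19), beside 0.09 (quartiles -0.17 and 0.34) for all 18746 genes measured on both arrays. The distance between these medians was -0.19. Of 7 other scalings, those that shift all genes of an array by 1 constant cannot change this distance. It shrank to -0.09 with quantile normalization, -0.11 with loess and -0.09 with another background correction (normexp). The sign of the set's own median depended on the scaling. In RNA of sorted cells, fewer cells of a type and less RNA per cell cannot be told apart.

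**Figure D1:**
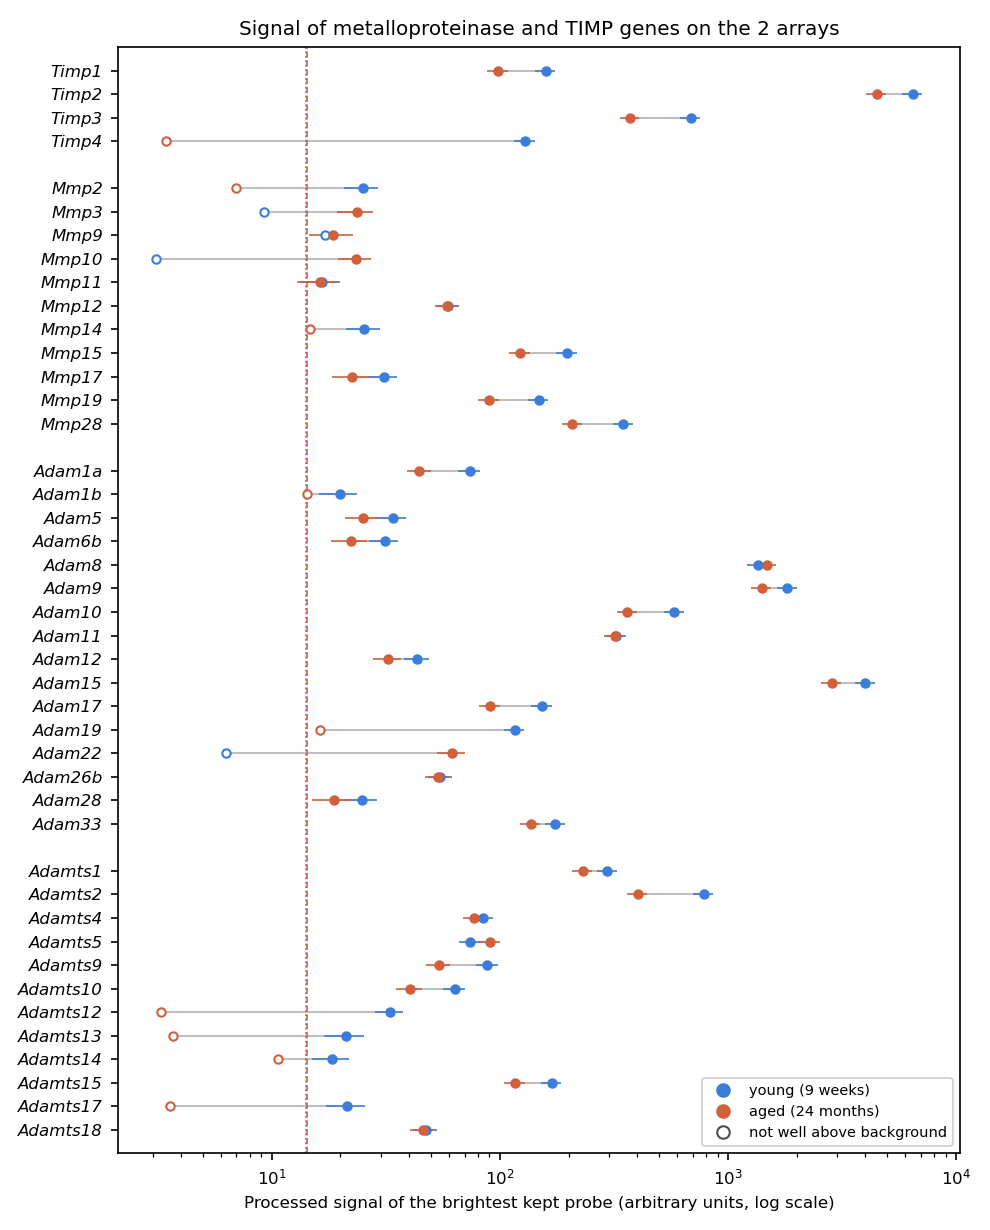
Processed signal (arbitrary units, log axis) of the brightest kept probe of the 43 metalloproteinase and TIMP genes well above background on at least 1 array, with blue points for the young array and red points for the aged array. Bars are the software error of the spot, open points are not well above background, and the vertical lines mark the lowest signal well above background of each array (14.1 and 14.3). For 30 genes both points are filled, and the open points mark the 9 genes measured on the young array alone and the 4 measured on the aged array alone.

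The lower limit of 5 genes was past 2-fold. On the aged array alone, 3 of 4 genes were at least 2-fold higher, namely Adam22, Mmp3 and Mmp10, where 52.5% of all genes measured on that array alone were. On the young array alone, 2 of 9 genes were at least 2-fold lower with age, namely Timp4 and Adam19, where 24.9% of all such genes were. The remaining gene of the aged array alone was Mmp9, the only gene of the set whose chosen probe changed when the brightest was taken by the higher of its 2 arrays instead of the mean. It was then measured on the young array alone, with 3 of 3 genes higher on the aged array alone and 3 of 10 lower on the young array alone. The probes behind these 5 limits, and below them those of genes whose own probes disagreed, are shown with the first 30 of their 60 bases, since each value rests on a single spot of this sequence. Their positions are those of the array file, on build mm9.
Timp4, chr6:115195840-115195899, minus strand: actgtttcctgagtgggctgtttggctgaa
Adam19, chr11:45960740-45960799, plus strand: catctatgcaaaatacttgaatgggccatg
Adam22, chr5:8092341-8092400, minus strand: tgggaggcaacaaaaagaaaatcagaggga
Mmp3, chr9:7455751-7455810, plus strand: ctttgtgaaaggaagtgctttgttcagcat
Mmp10, chr9:7510011-7510070, plus strand: acaaccctgtaaaatgagtctcatgacttc

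All 4 TIMPs were measured on the young array and 3 of them on both, each with a lower value on the aged array. Timp1, a secreted inhibitor of most MMPs, had a signal of 159 ± 16.3 in young and 98.2 ± 10.4 in aged cells, a difference of -0.32 ± 0.21. Timp2, which inhibits MMPs and also takes part in the activation of pro-MMP2 at the cell surface, had 6455 and 4489, a difference of -0.15 ± 0.20. That is within its error, and the sign turned to 0.02 when the arrays were centred on their median. Timp3, the inhibitor that stays bound to the matrix and also acts on ADAM17 and ADAMTS enzymes, had 687 ± 68.8 and 372 ± 37.3, a difference of -0.51 ± 0.21 that kept its sign under all 7 other scalings (-0.77 to -0.34). Timp4 had 129 ± 13.3 on the young array, while on the aged array the software had replaced its signal by a substitute of 3.42, a value it writes where a signal is below its own error. Its level in aged cells was thus lower by at least 6.97-fold, and by at least 2.15-fold under each of 7 other scalings. Timp4 had 2 other probes, and neither was well above background at either age. One of them, designed to the same transcript at position 870 where the bright probe lies at 1150, read 8.77 and 6.02, so the limit for Timp4 rests on 1 of its 3 probes.

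The collagenases, which cut fibrillar collagen, had no probe well above background at either age. None of Mmp1a, Mmp1b, Mmp8 and Mmp13 reached that mark, and the brightest reading among them was 14.3 for Mmp8 on the aged array against 5.35 on the young. Mmp7, the matrilysin of glandular epithelia, read 4.4 and 3.74 and was likewise not well above background. A signal under this limit does not show that the RNA was absent.

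The gelatinases, which cut basement-membrane type IV collagen, were near the limit of the array. Mmp2 had 25 ± 4.23 in young cells and 6.96 in aged cells, where it was not well above background, at least 1.35-fold lower. Mmp9 had 17.1 in young cells, not well above background, and 18.6 ± 4.11 in aged cells. The limit for Mmp9, 1.41-fold higher, was set by its own young signal and is the plain difference of 0.50 ± 0.46. Its second probe, whose bases lie on both sides of an intron, pointed the other way, with 48.2 ± 6.09 in young cells and a substitute of 3.71 in aged cells, at least 2.61-fold lower. The direction of Mmp9 is therefore not settled by these arrays.
Mmp9, position 2444 of the transcript, chr2:164780620-164780679, plus strand: ccaaccttttccagctactttagtcaatca
Mmp9, position 2065, chr2:164779091-164780300, plus strand: ctggaactcacacgacatcttccagtacca

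The stromelysins Mmp3 and Mmp10, closely related enzymes with a broad range of matrix substrates, were measured on the aged array alone. Mmp3 had 9.22 in young cells, not well above background, and 23.6 ± 4.24 in aged cells, at least 2.17-fold higher. Mmp10 had a substitute of 3.1 in young cells and 23.3 ± 3.91 in aged cells, at least 2.15-fold higher. Both aged signals were less than 2 times the lowest signal well above background, and each gene had 1 probe. The limits were under 2-fold for Mmp3 after scaling by the control RNAs added to both samples (spike-in scaling, 0.87 on the log2 scale) and with another background correction, normexp (0.52), and for Mmp10 under these and 2 further scalings (0.43 to 0.99). The other stromelysin, Mmp11, which furin activates inside the cell, read 16.6 ± 3.37 and 16.2 ± 3.36, a difference of 0.34 ± 0.42 that is within its error.

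Mmp3 and Mmp10 lie in the cluster of MMP genes on chromosome 9, whose probes run from 7282762 to 7699535 on mm9. Of the 10 MMP genes there, Mmp12 was measured on both arrays, Mmp3 and Mmp10 on the aged array alone, and 7 on neither. Mmp12, the elastase of macrophages, had 59.2 ± 6.89 in young and 58.7 ± 6.86 in aged cells, a difference of 0.36 ± 0.24. Many genes of this cluster are known targets of AP-1, a transcription factor whose usual site is TGA, then C or G, then TCA. The search used the looser TGANTCA, with any base in the middle, which reads alike on both strands. These letters were searched in the 250 bases before each start site in RefSeq's promoter table (GRCm38.p6), which held 49 of the 79 genes. They were found for 8 of the 10 cluster genes and for 4 of the 39 other genes of the set, 12 of 49 in all (24.5%), beside 7.82% of all 27025 genes in the table. The match of the cluster gene Mmp20 was TGAATCA, outside the usual site. The 120 bases before the start are shown for the 3 cluster genes that were measured, with the match in capitals.
Mmp12, chr9:7347254-7347373, plus strand: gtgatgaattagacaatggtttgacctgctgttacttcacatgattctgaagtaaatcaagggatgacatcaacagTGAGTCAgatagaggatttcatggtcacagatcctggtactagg
Mmp3, chr9:7445702-7445821, plus strand: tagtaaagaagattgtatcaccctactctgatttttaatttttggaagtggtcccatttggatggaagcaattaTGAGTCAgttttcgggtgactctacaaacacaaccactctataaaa
Mmp10, chr9:7502222-7502341, plus strand: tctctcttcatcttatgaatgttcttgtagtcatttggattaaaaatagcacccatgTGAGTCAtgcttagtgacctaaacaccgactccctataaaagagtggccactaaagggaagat
The match ends 38 bases before the start in Mmp12, 40 in Mmp3 and 57 in Mmp10. Genes of the cluster that were not well above background, such as Mmp1a, Mmp7 and Mmp13, held it as well, and binding was not measured.

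The membrane-type MMPs, which act at the cell surface, were represented by 3 of 6 genes. Mmp14, the activator of pro-MMP2, had 25.4 ± 4.38 in young cells and 14.6 in aged cells, not well above background. Its limit, 1.34-fold lower, was set by its own aged signal and is the plain difference of -0.43 ± 0.46, within its error. Mmp15 had 197 ± 20.0 and 122 ± 12.7, a difference of -0.32 ± 0.21. Mmp17, which is held by a lipid anchor, had 30.9 and 22.5, a difference of -0.08 ± 0.34. Mmp16, Mmp24 and Mmp25 were not well above background.

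Of the remaining MMPs, Mmp19 and Mmp28 were measured on both arrays beside Mmp12. Mmp28, known as epilysin for its place in epithelia, had 347 ± 34.9 in young and 208 ± 21.0 in aged cells, a difference of -0.37 ± 0.21. Mmp19 had 148 ± 15.1 and 89.3 ± 9.44, a difference of -0.36 ± 0.21. Both differences were below 0 under all 7 other scalings, at -0.62 to -0.19 for Mmp28 and -0.61 to -0.18 for Mmp19.

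**Figure D2:**
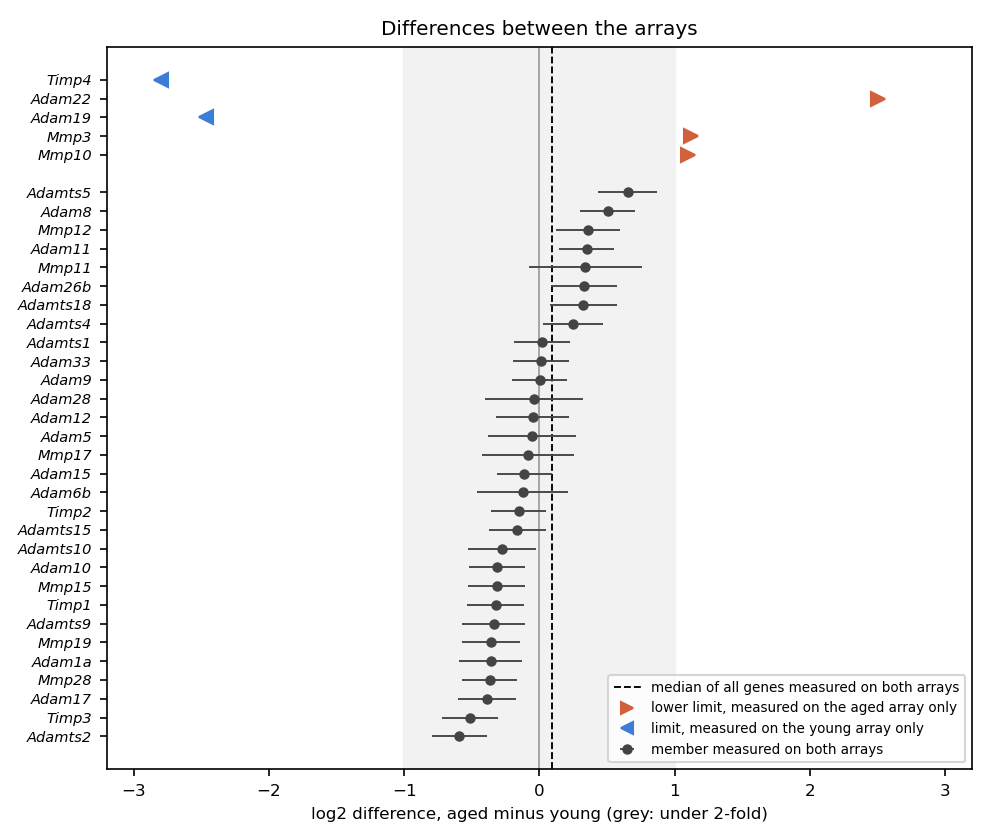
Difference between the arrays (log2 of aged over young, after scaling to the 75th percentile) for the 30 genes measured on both arrays, as points with the software error, and the lower limits of the 5 genes past 2-fold on 1 array alone, as triangles. The grey band covers differences under 2-fold and the dashed line is the median of all genes measured on both arrays (0.09). All 30 points lie inside the band, from -0.59 for Adamts2 to 0.65 for Adamts5.

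ADAMs with a catalytic site that are expressed outside the testis were all measured, 9 of 9 genes, and 8 of them on both arrays. ADAM10 and ADAM17 are the main sheddases of Notch, of ligands of the EGF receptor and of TNF. Adam10 had 581 ± 58.2 in young and 361 ± 36.3 in aged cells, a difference of -0.31 ± 0.21, and its second probe gave -0.37. Adam17 had 153 ± 15.7 and 90.5 ± 9.75, a difference of -0.39 ± 0.22, and its second kept probe, of another transcript, gave -0.92. Both genes were thus lower on the aged array by each kept probe, by less than 2-fold.

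Adam9 and Adam15, which are found in many epithelia, differed by less than their error. Adam9 had 1817 ± 182 and 1407 ± 141, a difference of 0.00 ± 0.20, and its sign turned under 5 of the 7 other scalings. Adam15 had 3994 ± 399 and 2853 ± 285, a difference of -0.11 ± 0.20, with -0.01 and -0.09 by its other 2 probes, and was above 0 (0.06) when the arrays were centred on the median. Adam12, which is known from muscle and growing tissue, and Adam28, known from lymphocytes, gave -0.05 ± 0.27 and -0.04 ± 0.36.

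Adam19, a protease known for its part in heart development and for the shedding of neuregulin, had 116 ± 12.1 in young cells and 16.2 in aged cells, where its probe was not well above background. Its limit, 5.53-fold lower in aged cells, was set by its own aged signal and is the plain difference of -2.47 ± 0.36. The array held 1 probe for Adam19, at position 6295 of its transcript, and the limit was -0.95 on the log2 scale, under 2-fold, with normexp background correction.

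Adam8, a protease of leukocytes, gave opposite results by its 2 probes, both bright and both well above background on each array. The probe at position 1918 of the transcript, whose bases lie on both sides of an intron, had 1350 ± 135 in young and 1480 ± 148 in aged cells, a difference of 0.50 ± 0.20. The probe at position 3015 had 788 ± 78.9 and 131 ± 13.5, a difference of -2.22, which is 4.65-fold lower. The 2 probes of Adam8 thus differed by 2.72 in their log2 difference. Among 2579 pairs of probes that lay at least 500 bases apart on 1 RefSeq transcript and were measured on both arrays, the 3′ probe's difference minus the 5′ probe's had a median of -0.05 (quartiles -0.28 and 0.12), and 2 pairs, Adam8 included, were at or below -2.72.
Adam8, position 1918, chr7:147171312-147171769, minus strand: tacagatctgaaaactgctctgctaaatgc
Adam8, position 3015, chr7:147164873-147164932, minus strand: ccgtcatctccggattgaaacagattagtt

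Adam33, known from fibroblasts and smooth muscle, also depended on the probe. Its brighter probe, at position 2813, had 175 ± 17.8 and 136 ± 14.0, a difference of 0.01 ± 0.21 whose sign turned under 3 other scalings, and the probe at position 3095 had 43.1 ± 5.30 in young cells and a substitute of 3.12 in aged cells, at least 2.33-fold lower.
Adam33, position 2813, chr2:130876845-130876904, minus strand: ttgtcccctcctcagatttacaggcttgca
Adam33, position 3095, chr2:130876563-130876622, minus strand: ccctgagagctgtgctattctgaaatgtta
Timp3 showed such a spread as well, with its 2 probes of the main transcript at -0.51 and -0.36 and another, of a transcript model at a different place in the locus, at -1.59 (184 ± 18.7 in young and 47.2 ± 5.63 in aged cells).
Timp3, position 4471, chr10:85812041-85812100, plus strand: cagtagagatgaagagacaccagccagaga
Timp3, position 4126, chr10:85811696-85811755, plus strand: atagtgacttttggggatagatctgtctgg
Timp3, other transcript model, chr10:85769407-85769466, plus strand: aagactctggggtcttgacattaggaaacc
In all, 13 genes of the set had several kept probes, and with dim signals taken only as limits the spread between probes exceeded 1 (log2) for 4 of those, namely Adam8, Adam33, Mmp9 and Timp3. Over all genes with several kept probes, 619 of 6606 (9.37%) did. With dim signals as they stood, Adam11 and Adamts18 were also above 1, but their limits allow spreads as low as 0.90 and 0.

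**Figure D3:**
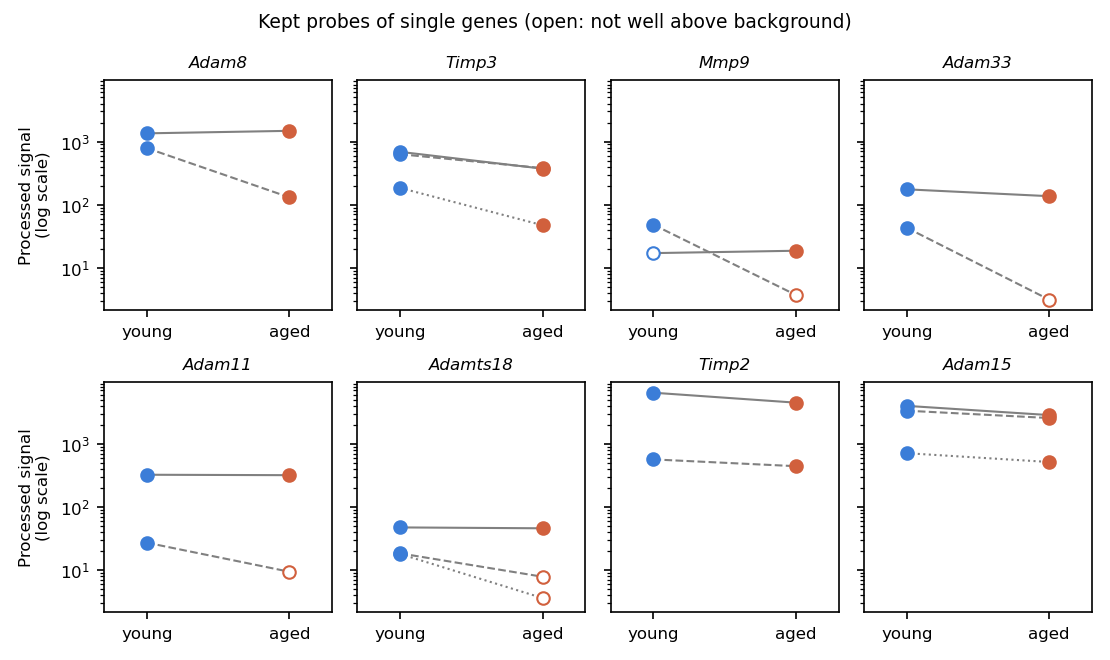
Processed signal (arbitrary units, log axis) of each kept probe of 8 genes on the young and the aged array, with lines joining the values of 1 probe, solid for the brightest, and open points for signals not well above background. The 2 probes of Adam8 start near each other and end at 1480 and 131 on the aged array, the probes of Mmp9 cross, and those of Timp2 and Adam15 run side by side.

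ADAMs without a catalytic site, which serve as adhesion proteins or receptors mainly in the nervous system, were represented by 2 of 3 genes. Adam11 had 324 ± 32.5 in young and 319 ± 32.0 in aged cells, a difference of 0.35 ± 0.21, whereas its second probe had 27.1 on the young array and 9.40, not well above background, on the aged array. Adam22, a receptor of the LGI proteins, had 6.30 in young cells, not well above background, and 61.7 ± 8.88 in aged cells, at least 5.67-fold higher, and past 2-fold under each of 7 other scalings (smallest fold 2.11). The other 2 probes of Adam22 were not well above background at either age, so its limit rests on 1 of 3 probes. Adam23 was not well above background by any of its 5 probes.

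Most ADAMs known from testis and epididymis, 16 of 21 genes, were not well above background at either age. The others were Adam1a, Adam5, Adam6b and Adam26b, measured on both arrays with differences between -0.36 and 0.33, and Adam1b, measured on the young array alone.

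ADAMTS genes were measured for 12 of 19 symbols, 8 on both arrays and 4 on the young array alone, and none passed 2-fold. Adamts2, which removes the N-terminal propeptide of fibrillar procollagens, had 783 ± 78.4 in young and 402 ± 40.3 in aged cells, a difference of -0.59 ± 0.20 that stayed below 0 under all 7 other scalings (-0.85 to -0.42). Adamts14, of the same group, was measured on the young array alone with 18.4, and Adamts3 on neither. The group that cuts proteoglycans such as aggrecan and versican had values on both sides of 0. Adamts5 had 74.3 ± 8.03 and 90.2 ± 9.53, a difference of 0.65 ± 0.22 that stayed above 0 under all 7 other scalings (0.40 to 0.83). Adamts4 had 84.3 and 77.2, a difference of 0.25 ± 0.22, and Adamts1 had 295 and 231, a difference of 0.02 ± 0.21 whose sign turned under 3 scalings. Adamts9 and Adamts15 were at -0.34 ± 0.23 and -0.16 ± 0.21.

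Of the other ADAMTS genes, Adamts10 and Adamts18 were measured on both arrays. Adamts10, which is associated with fibrillin, was at -0.28 ± 0.25, with 0.30 by another of its probes. Adamts18 was at 0.33 ± 0.25 by its brightest probe (47.4 and 45.9), but its 2 other kept probes, further 3′ in the transcript, were well above background on the young array alone, with 18.4 and 18.0 there and 7.83 and a substitute of 3.60 on the aged array. Adamts12, Adamts13 (which cuts von Willebrand factor) and Adamts17 were measured on the young array alone, with 33.0, 21.1 and 21.5 there, and their limits of 1.79, 1.14 and 1.16-fold lower did not reach 2-fold, although that of Adamts12 did with spike-in scaling (-1.09 on the log2 scale).

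Of the 30 genes measured on both arrays, 18 differed by more than their software error and 4 by more than 2 times that error, namely Adamts5 upwards, Adamts2 and Timp3 downwards, and Adam8, which was upwards by the probe used here (0.50) and downwards by its other probe (-2.22). The share of all genes past these errors was not computed, so the 2 counts cannot be read as particular to the set. The median software error of a difference was 0.21. Probes spotted at least 5 times on these arrays, which held none of the set, had a median SD between spots of 0.03, so that the software error is the wider of the 2 measures of spot precision, and neither holds the spread between mice.

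Genes that act on this system but fall outside the name rule were described by a list of 66 activators, inhibitors, cofactors and shed proteins, of which 52 were well above background and 50 measured on both arrays. Their median difference was -0.11. Of the 50, 1 was higher by 2-fold or more and 5 were lower by as much, with 1 more lower by its limit, read against 1.51% and 3.05% of all genes measured on both arrays and 24.9% of all genes measured on the young array alone. Of the 5 lower genes, Il6ra was not lower by its other probe and Tnf was lower by less than 2-fold by its other probe. Reck, a membrane-anchored inhibitor of MMPs, had 54.1 ± 6.41 in young and 19.2 in aged cells, a difference of -1.12 ± 0.34. Plaur, the receptor that holds urokinase, an activator of plasmin and so of pro-MMPs, had 642 and 239, a difference of -1.05 ± 0.21. Tll1, a tolloid metalloproteinase that removes the C-terminal propeptide of procollagen, had 88.8 and 11.8 and was at least 4.81-fold lower, but its second probe gave -0.20. Furin, which activates ADAMs and membrane-type MMPs, was at 0.03.

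Of 9 cofactors that guide ADAM10 and ADAM17, 8 were measured and 1 passed 2-fold. This was Tspan5, a tetraspanin that binds ADAM10, with 223 ± 22.5 in young and 64.8 in aged cells, a difference of -1.41 ± 0.22. The iRhom genes Rhbdf1 and Rhbdf2, which carry ADAM17 to the cell surface, were at -0.13 and -0.36, and the other tetraspanins measured, Tspan14, Tspan15, Tspan17 and Tspan33, were between -0.07 and 0.50.

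Of 25 surface proteins shed by ADAMs, 22 were measured and 3 passed 2-fold. Tnf had 343 ± 34.4 and 99.0, a difference of -1.42 ± 0.21, with -0.42 by its second probe. App, the amyloid precursor protein, had 5944 and 9449.5, a difference of 1.04 ± 0.20, with 0.47 and 1.05 by its other probes. Il6ra, the interleukin-6 receptor, was at -1.42 by its brightest probe, while the other probe of Il6ra was measured on the aged array alone and pointed upwards, so its direction is not settled. Among the ligands of the EGF receptor, Egf had 7872 and 4394, a difference of -0.47 ± 0.20, and Hbegf, Tgfa and Epgn were between -0.12 and 0.13. Areg, Ereg and Btc were not well above background. Notch1 and Notch2 were at 0.18 and -0.34.

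The arrays also differed in markers of cell types, both within the epithelium and outside it. All 10 epithelial markers were well above background on the young array and 9 on both, with a median difference of 0.18, none past 2-fold, and a summed signal of 132762 in young and 114692 in aged cells. All 10 markers of macrophages and dendritic cells were measured on both arrays and were below 0, 6 of them past 2-fold, with a median of -1.21 and a summed signal of 49483 and 20243. Of 10 fibroblast markers, Col1a1, Col1a2 and Col3a1 were lower by more than 2-fold and Pdgfra was lower by its limit, with a median of -0.95 over the 8 measured on both arrays and a summed signal of 5042 and 1941. The 7 endothelial markers measured on both arrays had a median of -0.55 and none passed 2-fold. Of the 7 basal and myoepithelial markers, Myh11 and Cnn1 were lower by more than 2-fold, but 4 lay above 0 and the median was 0.03. The 8 acinar markers had a median of 0.38, with 6 above 0 and 2 below, and Smgc alone passed 2-fold, at -1.79. The 7 granular duct markers had a median of -0.12, with 6 below 0 and 1 above, and none passed 2-fold. Of the 8 lymphocyte markers, 4 were measured on both arrays, where Cd2 and Cd79b were lower by more than 2-fold and the median was -0.74. Of 9 neutrophil markers, 4 were measured on both arrays, 2 above and 2 below 0, with a median of 0.03. Ltf was higher by more than 2-fold and Ngp by its limit, Ly6g and Csf3r were at -0.18 and -0.21, Camp was measured on the young array alone, and neither array had Mpo, Retnlg or Cxcr2 well above background. The summed signal of the neutrophil markers was 21164 in young and 14416 in aged cells, of which Csf3r alone gave 20356.5 and 13610. All summed signals here are as deposited, not scaled between the arrays. The values of the metalloproteinases and TIMPs, higher or lower, are to be read beside those of the markers. The same holds for the activators, inhibitors, cofactors and shed proteins outside the name rule. The part of these cell types in the differences was not tested.

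**Figure D4:**
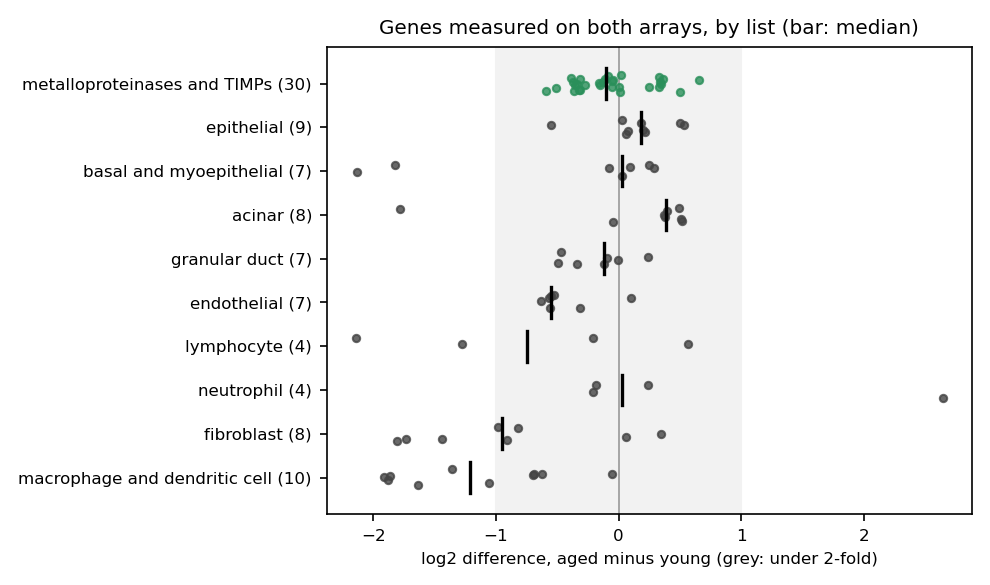
Difference between the arrays (log2 of aged over young, after scaling to the 75th percentile) of genes measured on both arrays, 1 point a gene, for the metalloproteinases and TIMPs in green and for marker lists of cell types in grey, with the median as a bar and the number of genes in brackets. The metalloproteinases and TIMPs all lie in the band under 2-fold around a median of -0.10, while macrophage and dendritic cell markers have a median of -1.21 and fibroblast markers of -0.95.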

How the data were processed

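RNA of EpCAM-sorted cells was labelled with Cy3 and hybridised to Agilent mouse arrays, 1 per age. The deposited scanner files hold the intensity of each spot, which the authors made with Feature Extraction 12.0.3.1 (version from the submitters' processing notes); per the file headers, processed intensities had the background subtracted and were not scaled between arrays. The authors' processed table, from GeneSpring, held these intensities over a constant for each array (229 and 176, the 75th percentiles over all spots; 62976 spots of each array followed within 0.1%) and was an alternative. Columns of spot marks in the deposited files gave the spots well above background, saturated or outlying, as other marks.

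From the scanner files, log2 of the processed intensity minus that of the 75th percentile of 59305 non-control spots was taken. Spots marked as outliers (90 young, 93 aged) were left out on both arrays and none was saturated. Of the non-control spots, 55.4% (young) and 50.8% (aged) were well above background. The normalization and the 2-fold threshold follow the study's methods. Python 3.11.15, numpy 2.4.6, pandas 2.3.3, matplotlib 3.10.9, R 4.3.3 and limma 3.58.1 were used, and the calls were tested on simulated data. Of the 154 probes, 128 were matched to RefSeq, with the file's symbol kept. A further gene whose current RefSeq symbol, but not the file's, fits the name rule was left out. Genes were named with values where they passed 2-fold, were among the 10 brightest, were TIMPs or gelatinases, or had a spread between probes above 1 (log2, dim signals as they stood). Other genes were described under their group, many with values, and were not among the 20 genes compared across all alternatives. The genes, lists and rules were chosen with earlier results of these data known. Scaling, background correction, filters, outliers and the choice of probe were varied. The number of arrays, 1 per age, limits the precision.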

Additional observations from a re-analysis of the deposited data

How the results depend on the processing

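No paired analysis was possible because each age had 1 array. By its brightest kept probe, no gene of the set measured on both arrays passed 2-fold under any of 7 other scalings. These moved the median of all genes by 0.17 (median centring), -0.11 (75th percentile over the probes measured at both ages), -0.06 (quantile), -0.14 (loess), -0.25 (spike-in controls), 0.01 (normexp) and 0.01 (authors' table), and the share of higher among all calls from 33.2% to 52.6% with median centring and 14.0% with spike-in controls. The set's median became 0.076 with median centring, 0.012 with normexp and -0.35 with spike-in controls. Genes higher by a limit numbered 1 with spike-in controls and 1 with normexp, against 3. Genes lower by a limit numbered 1 with normexp, and 4 with the second brightest probe or any kept probe, against 2. With dim values raised to the lowest signal well above background, 3 genes were counted as higher and 2 as lower, and with dim values as they stood 3 and 6. Counted as lower were also 1 gene with the mean over probes (Adam33), 1 with the second brightest probe (Adam8) and 2 with any kept probe (Adam8 and Timp3). The limits' counts, the dim values as they stood and the choice of probe by its higher array were chosen after seeing the data.

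Of 311 comparisons of the 20 genes named by rule with 17 alternatives, 278 kept direction and side of the threshold, 7 fell under 2-fold (Mmp3, Mmp10 and Adam19, given above), 1 passed it (Mmp2, -1.47 with dim values as they stood) and 25 reversed. With the 75th percentile over probes measured on both arrays, Adam33 was at -0.10, Adam9 at -0.11 and Adamts1 at -0.095. With loess, Adam33 was at -0.030, Adam9 at -0.25 and Adamts1 at -0.055. With spike-in controls, Adam33 was at -0.24, Adam9 at -0.25 and Adamts1 at -0.24. Adam9 was at -0.17 with quantile normalization and -0.062 with normexp, and the limit of Mmp9 at -0.24 with normexp. With median centring, Adam15 was at 0.061 and Timp2 at 0.023. With the mean over probes, which averages dim and substitute signals as they stand (those of Adam11, Adam33, Adamts18 and Mmp9), Adam11 was at -0.40, Adam33 at -1.70, Adam8 at -0.86, Adamts18 at -0.44 and Mmp9 at -0.64. With the second brightest probe, Adam11 was at -0.56, Adam33 at -1.22, Adam8 at -2.22, Mmp9 at -1.38 and Timp2 at 0.016. Mmp9 was also at -1.38 with the probe chosen by its higher array. The cause of these changes was not tested.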
